A study of Homo sapiens with 75 samples.

Results

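The comparison was between BJ cells, a human skin fibroblast line, 3 h after 5 Gy of ionising radiation (3 arrays) and mock-irradiated BJ cells at 3 h, called untreated here (3 arrays). These 6 arrays were picked by their labels, from 15 BJ arrays and 75 arrays in the series. The comparison itself was chosen with earlier results of these data known. The other BJ arrays came from irradiated cells at 6 h and from untreated cells at 0 h and 6 h (3 arrays each), and U2OS (osteosarcoma) and TK6 (B lymphoblastoid) cells with the same groups served for comparisons of the irradiation effect between lines. The remaining arrays, of the same groups in G361 (melanoma) cells and in cells labelled HepG2 (liver cancer), entered only the marker check, the choice of probe sets and 1 alternative fit of all 75 arrays. Untreated cells at 3 h went through every step except the exposure, and no label tells if the replicates were grown as separate cultures. The p-values therefore cover the spread between arrays, which may be technical.

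Ionising radiation breaks DNA, and the kinase ATM, activated at double-strand breaks, stabilises the transcription factor p53. p53 switches on genes that halt the cell cycle, repair or tolerate damage, restrain growth and promote cell death, together with genes such as MDM2 and PPM1D whose products shut p53 down again. Fibroblasts of the skin make the collagen matrix of the dermis and are known for a durable cell cycle arrest after irradiation rather than for rapid death.

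Levels are log2 values of RMA, a summary of all probes of a probe set with background correction and normalization across arrays, so a difference of 1 means 2-fold. All 12 fibroblast markers were higher in BJ than in the other 4 lines, at 9.41 to 13.64. In the cells labelled HepG2 the hepatocyte genes lay only at 2.77 (ALB) to 4.51 (TTR). Of the fibroblast markers in those cells, the collagen gene COL6A3 was at 11.3 and TWIST2 at 7.75. The rest lay at 2.15 (LUM) to 5.67 (COL1A1). The identity of those cells was not tested. Of other cell types' markers, the keratin gene KRT10 (9.67), the keratinocyte gene SFN (5.83) and the melanocyte transcription factor gene MITF (8.38) stood clearly above the limit of 3.47 used for testing, while the defining genes KRT14 (2.84), MLANA (2.92), ALB (2.91), CDH5 (2.62) and MS4A1 (2.88) lay below it, and the highest of the rest was the melanosome gene PMEL (4.84). No marker of any of these lists was called. The 6 arrays had medians of 3.93 to 3.96, and the lowest correlation of an array within its group was 0.9915 to 0.9924. The 5' minus 3' difference of the ACTB control probe sets was -0.77, -1.14 and -1.27 in irradiated replicates 1, 2 and 3 and -0.66, -1.09 and -1.01 in untreated ones, so replicate 1 stood apart in both groups. Its part in the results was not tested, other than by the fits without replicate 1.

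At 3 h, 26 of 14467 genes rose (0.18%) and 0 fell (0.0%) by limma at a Benjamini-Hochberg adjusted p under 0.05. At an unadjusted p under 0.05, 168 genes were higher (1.16%) and 130 lower (0.899%). For each of the 26, all 3 irradiated arrays lay above all 3 untreated arrays, which was so for 3.6% of the genes tested. The rises ran from 0.50 to 2.23 log2 with a median of 0.98, against a median of 0.00 over all genes, and 12 were at least 2-fold (0.0829%). Of the 26, 16 belonged to a list of known p53 targets. The precision is limited by 3 arrays a group: 18 of the 26 were called without any single one of the 6 arrays, and without replicates 1, 2 or 3 of every group 17, 13 and 12 genes rose.

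**Figure D1:**
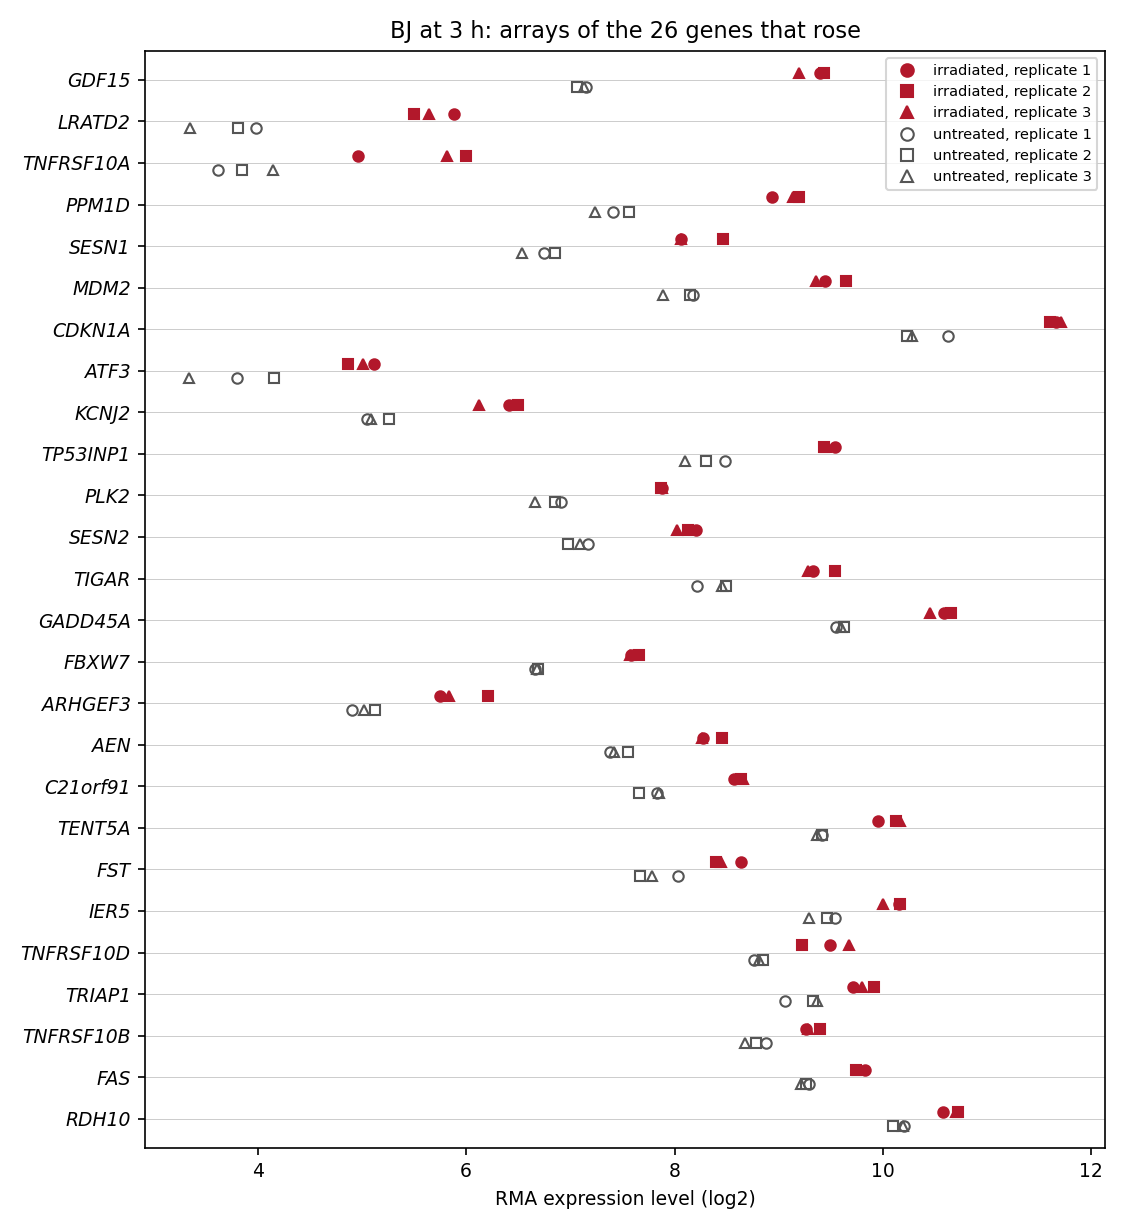
RMA level (log2, x axis) of each of the 26 genes that rose, one row a gene, ordered by the size of the rise. Filled red symbols are irradiated arrays and open grey symbols untreated arrays at 3 h, with one symbol shape per replicate number; in no row do the colours overlap.

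The secreted genes were led by GDF15, a stress cytokine of the TGF-beta family. GDF15 stood at 9.40, 9.43 and 9.19 in irradiated replicates 1 to 3, against 7.15, 7.06 and 7.13 in untreated ones. No other tested gene differed as much. Its rise of 2.23 log2 (SE 0.15, 95% interval 1.92 to 2.54, n = 3 arrays a group, adjusted p = 5.57e-07) was 4.68-fold. Both other probe sets of GDF15 were dim, with mean levels of 3.13 and 3.70, and gave -0.06 and 0.62. Of 11 tested targets with secreted or signalling products GDF15 was the one that rose (0.18% of all genes). All 11 were higher and their median was 0.21. BLOC1S2 (0.48, adjusted p = 0.122) was called when the replicate number was a block (adjusted p = 0.0296).

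Of 7 tested p53 feedback genes 3 rose (0.18% of all genes). MDM2, the ubiquitin ligase that degrades p53, stood at 9.44, 9.65 and 9.36 in irradiated arrays, against 8.18, 8.15 and 7.89 in untreated arrays. PPM1D, the Wip1 phosphatase that removes damage-induced phosphates, stood at 8.94, 9.19 and 9.14 in irradiated arrays, against 7.41, 7.56 and 7.24 in untreated arrays. In both genes the lowest irradiated array was more than 1 log2 unit above the highest untreated one. MDM2 rose by 1.41 (SE 0.12, adjusted p = 9.43e-06) and PPM1D by 1.68 (SE 0.13, adjusted p = 3.47e-06), and TRIAP1, an inhibitor of apoptosis, by 0.55 (SE 0.10, adjusted p = 0.0166). All 9 other probe sets of MDM2 and the 1 other of PPM1D were higher too. Of the other 4, the cyclin G1 gene CCNG1 (0.40, adjusted p = 0.315, called with the replicate block at 0.0414) and ZMAT3 (0.33) were higher in every pair, and the p53 ligase genes COP1 (0.00) and RCHY1 (-0.21) were not.

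Among genes of cell cycle arrest and growth restraint, 5 of 7 tested members rose (0.18% of all genes), with a median of 1.04. The list was written with results of these data known, so this count is a description. CDKN1A, the gene of the kinase inhibitor p21, stood at 11.66, 11.60 and 11.71 in irradiated arrays, against 10.62, 10.23 and 10.28 in untreated arrays. The irradiated arrays lay within about 0.1 of each other, and untreated replicate 1 stood above the other untreated arrays. CDKN1A rose by 1.28 log2 (SE 0.10, adjusted p = 3.47e-06), or 2.43-fold. GADD45A, which encodes a growth arrest protein that binds PCNA and p21, stood at 10.59, 10.65 and 10.45 in irradiated arrays and at 9.55, 9.63 and 9.60 in untreated arrays, and rose by 0.97 (SE 0.08, adjusted p = 6.32e-06). At 0 h GADD45A stood at 10.07, 10.00 and 10.09, so the irradiated mean was only 0.51 above 0 h. The untreated level at 3 h was 0.46 below 0 h, not called by limma (adjusted p = 0.125). PLK2, a polo-like kinase gene, lay within 0.01 of 7.88 in all 3 irradiated arrays, against 6.91, 6.85 and 6.66 in untreated arrays, a rise of 1.07 (SE 0.12, adjusted p = 1.14e-04).

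Both stress-induced sestrin genes, whose products restrain the growth kinase complex mTORC1, rose, but stood differently to the cells of 0 h. SESN1 stood at 8.06, 8.47 and 8.06 in irradiated arrays, 6.75, 6.85 and 6.54 in untreated arrays at 3 h and 6.33, 7.01 and 6.82 at 0 h. Its untreated levels at 3 h overlapped those at 0 h, and it rose by 1.48 (SE 0.17, adjusted p = 2.27e-04). SESN2 stood at 8.21, 8.13 and 8.02 in irradiated arrays, 7.17, 6.98 and 7.09 in untreated arrays at 3 h and 8.32, 8.10 and 8.09 at 0 h. The irradiated arrays were thus at the 0 h level, and the untreated ones below it. Irradiated over untreated, SESN2 rose by 1.04 (SE 0.10, adjusted p = 1.74e-05), and its untreated level at 3 h was lower than at 0 h by limma (-1.09, adjusted p = 5.33e-05).

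**Figure D2:**
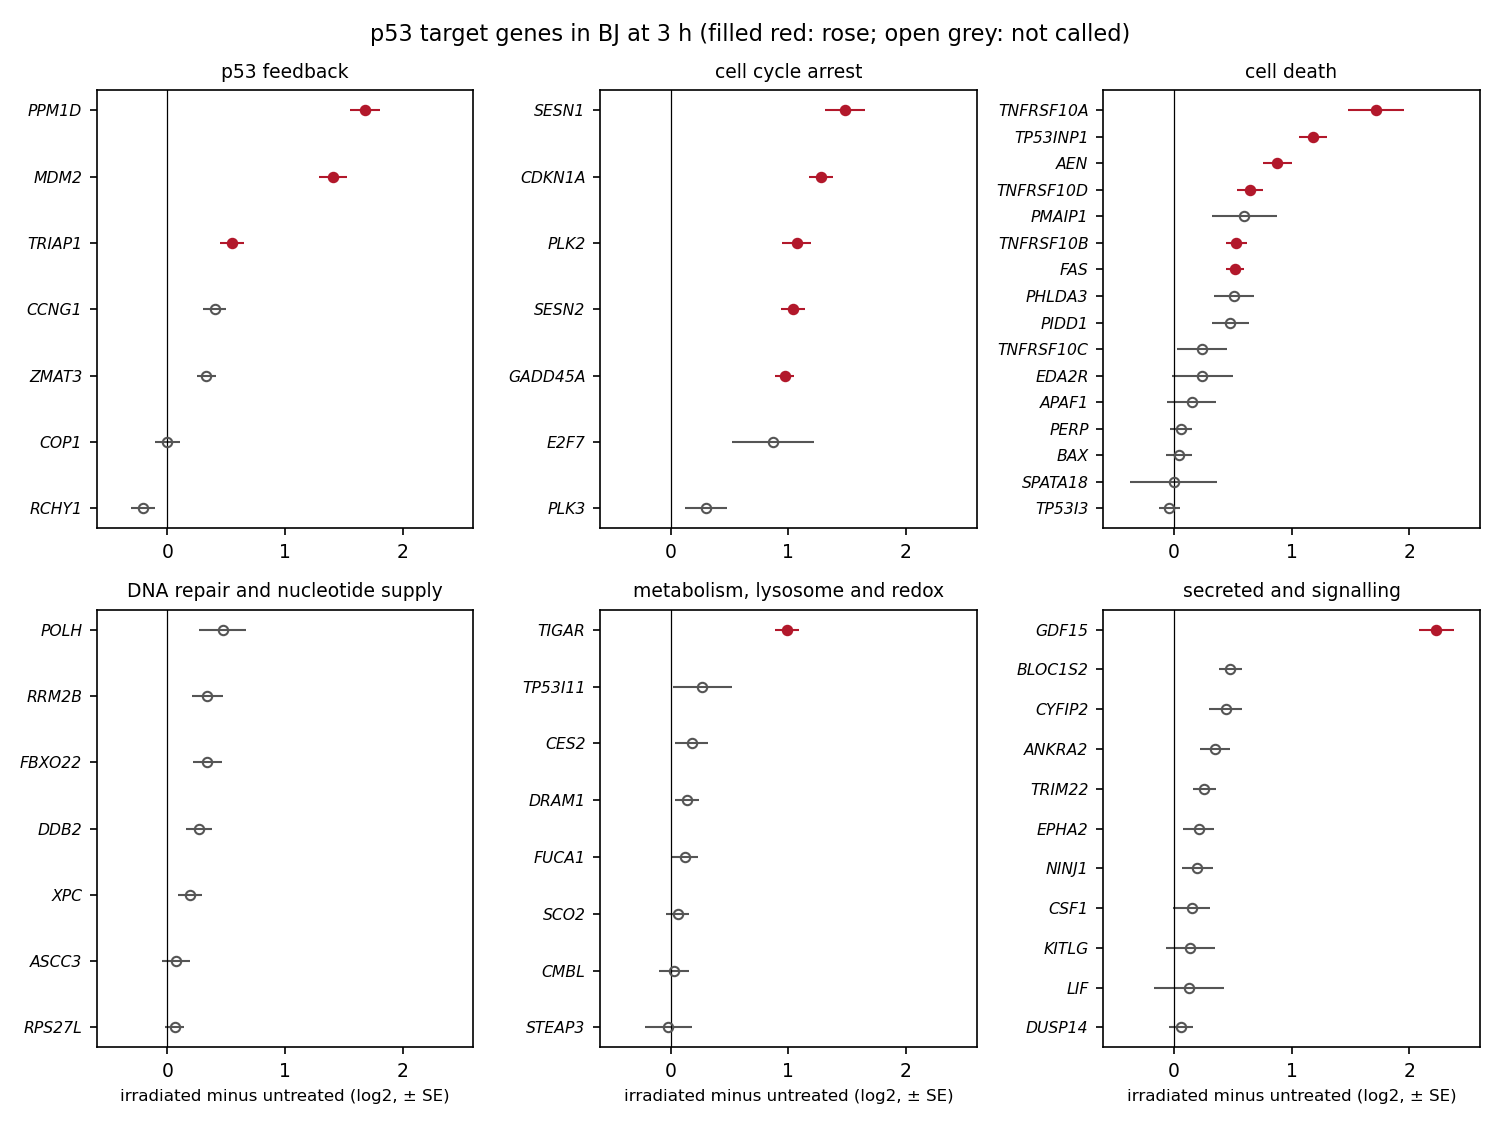
Irradiated minus untreated difference at 3 h (log2, x axis, with SE) for the 56 tested p53 targets, one panel a role, each sorted by size. Filled red points rose and open grey points were not called. In the panel of cell cycle arrest 5 of 7 are red, and in that of DNA repair and nucleotide supply 0 of 7.

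Death genes rose in part, and the ones that did were mostly receptors at the cell surface. TNFRSF10A, a receptor for the death ligand TRAIL, stood at 4.96, 6.00 and 5.82 in irradiated arrays, against 3.62, 3.85 and 4.15 in untreated arrays close to the level limit. Irradiated replicate 1 was lowest but still above every untreated array. TNFRSF10A rose by 1.72 (SE 0.24, adjusted p = 0.00173), the second TRAIL receptor gene TNFRSF10B by 0.53 (SE 0.09, adjusted p = 0.0104), the decoy receptor gene TNFRSF10D by 0.65 (SE 0.11, adjusted p = 0.0166) and the FAS receptor gene by 0.52 (SE 0.08, adjusted p = 0.00352). All 4 other probe sets of FAS were higher by 0.51 to 0.96. Those of the TRAIL receptor genes were higher by less than the sets used. They gave 0.44 and 0.62 for TNFRSF10A, 0.12 to 0.19 for TNFRSF10B and 0.22 for TNFRSF10D. TP53INP1, which promotes p53-dependent death, rose by 1.18 (SE 0.12, adjusted p = 5.82e-05) and the apoptosis-enhancing nuclease gene AEN by 0.88 (SE 0.12, adjusted p = 0.00158). The other probe sets of TP53INP1 were dim, at mean levels of 2.68 to 4.45, and gave 0.08 and 0.44.

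These 6 were the risen members among 16 tested death genes, whose median was 0.50, against 0.18% of all genes that rose. Receptor genes were also among those not called, with TNFRSF10C at 0.24 (95% interval -0.20 to 0.67) and EDA2R at 0.24 (-0.31 to 0.79). BAX, the pore former of the outer mitochondrial membrane, stood at 7.88, 8.13 and 8.14 in irradiated arrays and at 8.04, 7.93 and 8.08 in untreated arrays. The BAX groups overlapped, with a difference of 0.04 (95% interval -0.19 to 0.27), and TP53I3, a quinone oxidoreductase gene, gave -0.04 (-0.23 to 0.14). PMAIP1, the gene of the BH3-only protein NOXA, was 0.66, 0.80 and 0.33 higher in the 3 pairs but not called (0.60, SE 0.28, adjusted p = 1.0).

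The 7 tested p53 targets listed under DNA repair and nucleotide supply were all higher, by 0.06 to 0.47, and 0 rose. The nucleotide excision repair genes DDB2 and XPC gave 0.27 (95% interval 0.03 to 0.51) and 0.19 (-0.03 to 0.40). The translesion polymerase gene POLH (0.47) and the ribonucleotide reductase gene RRM2B (0.34) had unadjusted p-values of 0.0297 and 0.0182. Among 8 metabolic and lysosomal targets TIGAR, a fructose-2,6-bisphosphatase gene, was the one that rose (0.18% of all genes). It stood at 9.33, 9.54 and 9.28 in irradiated arrays, against 8.22, 8.49 and 8.46 in untreated arrays. TIGAR rose by 0.99 (SE 0.10, adjusted p = 4.25e-05), while the lysosomal genes FUCA1 (0.12) and DRAM1 (0.14) were not called.

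Over the whole list (63 listed, 59 on the array), 16 of 56 tested p53 targets rose (0.18% of all genes). Of the 56, 52 were higher, against 6994 of 14467 genes, and 40 were higher in all 3 pairs (14.1% of all genes). The median was 0.31. The list was written from general knowledge with these data's results known, and its count and median are a description. Its mean level relative to the 0 h arrays was 0.33, 0.46 and 0.35 in irradiated replicates 1 to 3 and -0.13, -0.06 and -0.13 in untreated ones. The groups did not overlap, and the pair differences of 0.45, 0.52 and 0.48 were close to each other.

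The other 10 genes that rose were outside the list. LRATD2 stood at 5.88, 5.50 and 5.64 in irradiated arrays, against 3.98, 3.81 and 3.35 in untreated arrays. ATF3, a stress-induced transcription factor gene, stood at 5.12, 4.87 and 5.01 in irradiated arrays, against 3.80, 4.16 and 3.34 in untreated arrays. Both were dim in untreated cells, with replicate 3 under the level limit, so the size of their rises is uncertain. LRATD2 rose by 1.96 (SE 0.23, adjusted p = 2.18e-04) and ATF3 by 1.23 (SE 0.24, adjusted p = 0.0469), and their other probe sets, with mean levels of 2.82 to 4.37, gave only 0.01 to 0.15. ATF3 was called in 1 of 6 fits that left out a single array, and its irradiated levels reached only slightly above those at 0 h, which were 4.08, 4.86 and 4.57.

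KCNJ2, a potassium channel gene, rose by 1.21 (SE 0.20, adjusted p = 0.0123), FBXW7, the ubiquitin ligase adaptor that targets cyclin E and MYC for degradation, by 0.92 (SE 0.12, adjusted p = 9.91e-04), and ARHGEF3, an exchange factor gene for RhoA, by 0.91 (SE 0.16, adjusted p = 0.0192). C21orf91 (0.84), the poly(A) polymerase gene TENT5A (0.68), the immediate early gene IER5 (0.67), the follistatin gene FST (0.67) and the retinol dehydrogenase gene RDH10 (0.50) were the smaller rises. FBXW7 was the tightest of these, at 7.58, 7.66 and 7.57 in irradiated arrays, against 6.66, 6.69 and 6.68 in untreated arrays. TENT5A was 9.95, 10.13 and 10.16 in irradiated arrays and 9.42, 9.42 and 9.37 in untreated arrays. The second probe set of C21orf91 gave 0.86, whereas those of TENT5A gave -0.06 and 0.36. RDH10 was called in 0 of 6 fits without a single array, ARHGEF3 and FST, like TNFRSF10D, in 1, KCNJ2 in 2, and TNFRSF10B and TRIAP1 in 3.

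p53 binds DNA at a pair of half-sites. Windows of 250 bases before to 50 after the gene start (RefSeq, GRCh38.p14) were searched on both strands for the canonical p53 half-site, and 4 of the 19 risen genes with a window held one (21.1%), against 7.69% of tested genes and 8.06% of all genes with a window. A pair of half-sites with 0 to 13 bases between them was in 0 of the 19 windows (0.0%), against 0.0346% of tested genes and 0.0366% of all genes with a window. Each is shown 5′ to 3′ with its half-site in capitals, as the arrest and death genes whose start region can be set beside the rise, at 34 to 132 bases before the start, and the SESN1 and FAS sites each lie in 1 of the 3 windows of the gene.
PLK2: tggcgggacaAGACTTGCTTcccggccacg
SESN1: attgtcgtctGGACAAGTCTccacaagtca
AEN: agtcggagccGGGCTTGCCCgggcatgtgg
FAS: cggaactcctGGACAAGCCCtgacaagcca
The stretches lie at chr5:58460199-58460228 (minus strand), chr6:109009018-109009047 (minus strand), chr15:88621296-88621325 (plus strand) and chr10:88991299-88991328 (plus strand). These matches are descriptions of letters in a window, and windows without a match say nothing about p53 at those genes.

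Genes of G2 and mitosis were lower but not called. Of 40 tested, 39 were lower (51.7% of all genes), 9 at an unadjusted p under 0.05, and 27 were lower in all 3 pairs (15.3% of all genes), with a median of -0.43. PSRC1, a spindle microtubule gene, stood at 5.82, 6.43 and 6.03 in irradiated arrays, against 6.51, 7.33 and 7.23 in untreated arrays. HJURP, the chaperone gene of the centromere histone, stood at 5.87, 6.73 and 5.84 in irradiated arrays, against 6.51, 7.34 and 7.16 in untreated arrays. In both genes irradiated replicate 2 came close to untreated replicate 1, the HJURP groups overlapped, and the PSRC1 groups did not. The differences were -0.93 for PSRC1 (adjusted p = 0.290), -0.86 for HJURP (adjusted p = 0.510), -0.83 for the mitotic kinase gene AURKA and -0.80 for CDCA8, of the chromosomal passenger complex.

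Single arrays of both groups differed in these genes. The list's mean relative to 0 h was -1.15, -0.11 and -1.06 in irradiated replicates 1 to 3, against -0.80, 0.00 and -0.25 in untreated ones. Replicate 2 was highest in both groups and replicate 1 lowest, so the pair differences were -0.35, -0.11 and -0.81. PSRC1 was called lower without untreated replicate 1, and HJURP without irradiated replicate 2. Lower levels of these genes in bulk RNA can come from fewer dividing cells or less RNA per cell, which cannot be told apart. With untreated cells of 0 h and 3 h together as the controls, 31 genes rose (0.214%) and 11 fell (0.076%). PSRC1, HJURP and the mitotic kinase activator gene BORA were among the lower ones, and 25 of the 26 genes kept their call. These controls also carry the change of untreated cells from 0 h to 3 h. That change was -0.25 for PSRC1, -0.64 for HJURP and -0.38 for BORA, none called.

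With the mitotic mean of each array as a covariate, 29 genes rose (0.2%) and 22 of the 26 kept their call, without ATF3, FST, RDH10 and TNFRSF10D, and the median of the p53 targets was 0.39. Among the fits run, 2 p53 targets were called in that one alone. They were E2F7, a repressor of cell cycle genes, with 1.47 (adjusted p = 2.28e-05), against 0.87 (adjusted p = 1.0) without the covariate, and PMAIP1 with 1.0 (adjusted p = 0.0240). IL1B, the interleukin gene, was another such gene, with 1.13 (adjusted p = 0.00749), against 0.60 without the covariate. The covariate was measured in the same arrays and itself differs between the groups.

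**Figure D3:**
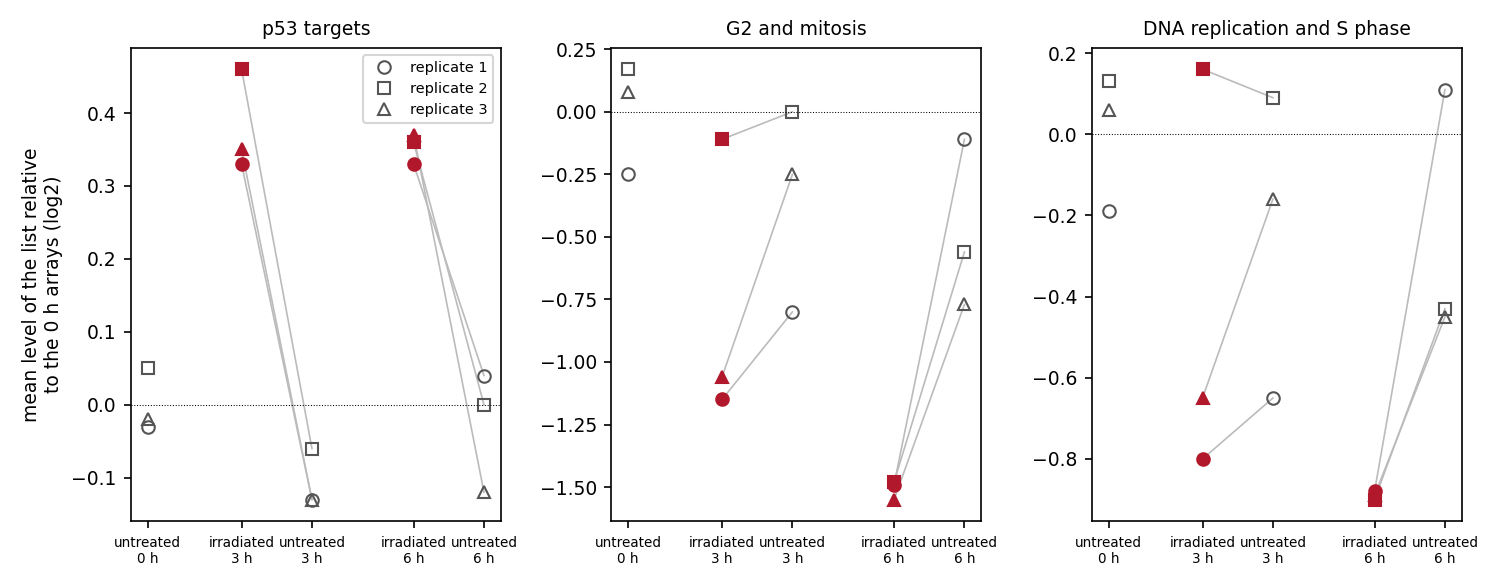
Mean level of the tested members of 3 gene lists relative to the mean of the 0 h arrays (log2, y axis), one point an array, in all 5 BJ groups (x axis). Filled red symbols are irradiated arrays, open grey symbols untreated arrays, shapes are replicate numbers, and lines join the same number within a time; p53 targets separate the groups at 3 h, while the mitotic and replication means of replicate 2 at 3 h lie near 0 in both groups.

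DNA replication genes showed the same array pattern at a smaller size. Of 39 tested, 0 were called and 33 were lower (51.7% of all genes), with a median of -0.17. Their mean was -0.80, 0.16 and -0.65 in irradiated arrays, against -0.65, 0.09 and -0.16 in untreated arrays. The replication licensing gene CDC6 differed by -0.70, 0.03 and -1.70 in the 3 pairs, a spread larger than its difference of -0.79 (SE 0.38). PCNA, the sliding clamp gene and also a p53 target, was 0.41 higher (SE 0.21, adjusted p = 1.0).

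Outside the mitotic genes, those with the smallest p-values among the lower genes were not called either in this comparison. GLCCI1 was at 7.77, 7.57 and 7.56 in irradiated arrays and 8.13, 8.06 and 8.13 in untreated arrays, with no overlap (-0.47, adjusted p = 0.304). The untreated arrays at 0 h were at 7.63, 7.65 and 7.67, near the irradiated ones. The semaphorin gene SEMA6D (-0.51), the transcription factor gene KLF2 (-0.54), CHCHD2 (-0.27) and STARD13 (-0.36) had adjusted p-values of 0.369 to 0.589. With untreated cells of 0 h and 3 h together as the controls, KLF2 (-0.78, adjusted p = 0.00464) and SEMA6D (-0.56, adjusted p = 0.0326) were called lower. GLCCI1 was not (-0.25, adjusted p = 0.807). These controls also carry the change of untreated cells from 0 h to 3 h. That change was -0.49 for KLF2, -0.11 for SEMA6D and 0.46 for GLCCI1, none called.

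Other stress programmes stayed near the median of all genes. Of 27 immediate early genes 2 rose (0.18% of all genes), IER5 and ATF3, with a median of -0.03. MYC was not called (-0.45, adjusted p = 0.740). In 19 NF-kB targets and inflammatory genes 0 were called (median 0.08), with the inhibitor gene NFKBIA at 0.28 and IL6 at -0.43. In 24 interferon-stimulated genes 0 were called (median -0.01). The medians were -0.05 for 32 genes of double-strand break signalling and repair, -0.02 for 24 genes that respond to unfolded protein or amino acid stress, -0.04 for 14 heat shock genes, 0.02 for 16 replication-dependent histone genes and 0.02 for 18 cholesterol genes, each with 0 called. The HSP70-family gene HSPA4L (0.64, adjusted p = 1.0) was the farthest from 0 among the heat shock genes. Of 31 fibroblast matrix and contractile genes 0 were called, and all lay between -0.08 and 0.19.

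**Figure D4:**
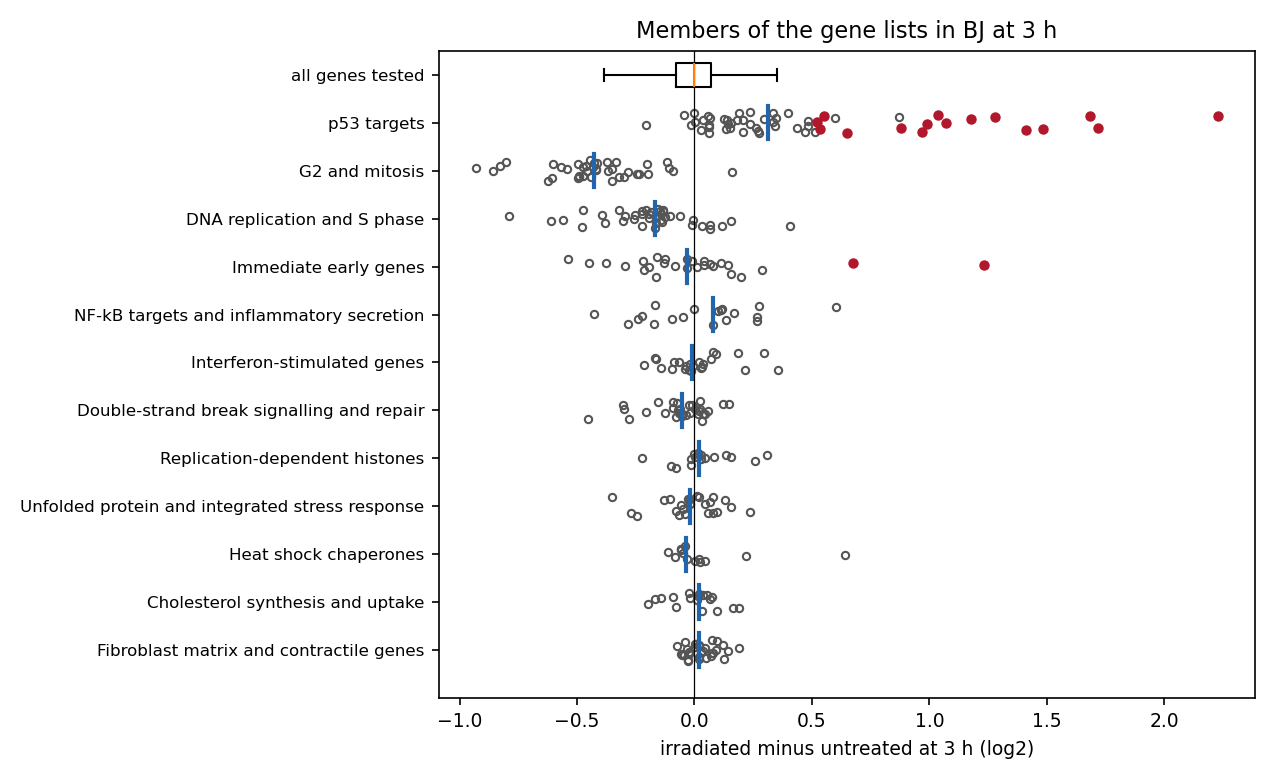
Irradiated minus untreated difference at 3 h (log2, x axis) of every tested member of 12 gene lists, one row a list. Filled red points rose, open grey points were not called, blue bars are medians, and the box above spans the quartiles of all genes tested with whiskers at the 1st and 99th percentile; p53 targets extend to the right and mitotic genes to the left.

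The untreated cells themselves were set beside the rises, since both comparisons share the untreated arrays at 3 h. Untreated at 3 h against 0 h, 0 genes rose (0.0%) and 2 fell (0.0138%), or 2 and 2 when the replicate number was a block, and no call was left without replicate 2 or 3. These were SESN2 and CHAC1, a glutathione-degrading enzyme gene of the integrated stress response. CHAC1 stood at 5.60, 5.90 and 5.67 in irradiated arrays, 5.59, 6.16 and 6.23 in untreated arrays at 3 h, and 7.67, 7.38 and 7.43 at 0 h. Both groups thus stood below 0 h, and the irradiated minus untreated difference was -0.27. Of the 26 risen genes 21 were lower in untreated cells at 3 h than at 0 h, with a median of -0.16, against 50.6% of all genes and a median of 0.00. The same untreated arrays at 3 h chose the 26, so this count is a description. For 25 of the 26, all but SESN2, every irradiated array lay above every 0 h array, which was so for 6.75% of the genes tested.

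At 6 h the same genes stood higher in irradiated cells. All 26 were higher, 11 were called (0.145% of genes rose at 6 h), 21 had a smaller difference than at 3 h, and the median was 0.62. The 26 were chosen by their 3 h difference, so the smaller values at 6 h are a description. The 56 p53 targets, risen or not, had a median difference of 0.31 at 3 h and 0.32 at 6 h. GADD45A gave 0.97 at 3 h and 0.32 at 6 h, PPM1D 1.68 and 0.63, GDF15 2.23 and 1.22, and IER5 0.67 and 0.07. For GADD45A the untreated arrays moved more than the irradiated ones. Untreated arrays stood at 9.55, 9.63 and 9.60 at 3 h and at 10.06, 10.00 and 10.18 at 6 h. Irradiated arrays stood at 10.59, 10.65 and 10.45 at 3 h and at 10.34, 10.30 and 10.55 at 6 h. FST (0.67 and 0.99), FAS (0.52 and 0.72) and RDH10 (0.50 and 0.75) had larger differences at 6 h. The test of the 6 h minus 3 h difference called 0 genes (0.0%), with 302 at an unadjusted p under 0.05 (2.09%), and the smallest unadjusted p-values among the 26 were 3.50e-05 for GADD45A and 3.58e-05 for PPM1D (adjusted p = 0.259 for both).

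In U2OS at 3 h 24 of the 26 genes were above the level limit, all 24 were higher and 10 rose (0.0751% of tested genes rose there). The median over all genes in U2OS was 0.1. U2OS and TK6 were chosen because their irradiated arrays stood apart from untreated ones in p53 targets. The shared rises in both lines are therefore a description. GDF15 differed by 2.23 in BJ and 2.76 in U2OS, CDKN1A by 1.28 and 1.33, and SESN1 by 1.48 and 1.46. The test of the difference, BJ minus U2OS, called 1 gene of 15262 (0.00655%). It was TNFRSF10A, at mean levels of 5.59 in irradiated and 3.87 in untreated BJ, against 3.04 in irradiated and 3.19 in untreated U2OS, where it lay under the level limit. The difference of the effects was 1.87 (SE 0.30, adjusted p = 0.00368), and it was not called without replicate 2 (adjusted p = 0.853) or 3 (adjusted p = 0.941). Over all genes the BJ minus U2OS difference had a median of -0.11, which was -0.01 after quantile normalization.

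TK6 differed more. Of the 26 genes 24 were above the level limit in TK6 and 17 rose there (1.88% of tested genes rose). The difference BJ minus TK6 was called for 87 of 15261 genes (0.57%), 22 higher and 65 lower, and for 197 when the replicate number was a block. Without replicate 2 or 3 it was called for 9 and 11. Of 57 p53 targets 14 had a lower effect in BJ (0.426% of all genes) and 1 a higher one, PLK2. CDKN1A rose by 1.28 in BJ and 2.25 in TK6, TP53INP1 by 1.18 and 3.14, and SESN1 by 1.48 and 2.67. The differences were -0.97 (SE 0.18, adjusted p = 0.00180), -1.97 (SE 0.33, adjusted p = 4.02e-04) and -1.19 (SE 0.28, adjusted p = 0.0307). None of these 3 was called without replicate 2 (adjusted p = 0.207, 0.176 and 0.614) or without replicate 3 (adjusted p = 0.181, 0.0538 and 0.633).

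Several p53 targets that were near 0 in BJ were among those that rose in TK6. FUCA1 differed by 0.12 in BJ and by 3.67 in TK6, at mean levels of 8.79 in irradiated and 5.12 in untreated TK6, while all 6 BJ arrays lay between 8.31 and 8.53. TP53I3 differed by -0.04 in BJ and 2.23 in TK6, and XPC by 0.19 and 1.58. The differences were -3.54 for FUCA1 (SE 0.38, adjusted p = 1.92e-07), -2.27 for TP53I3 (SE 0.27, adjusted p = 1.09e-06) and -1.40 for XPC (SE 0.17, adjusted p = 1.20e-06), and each was called without any 1 replicate number. The untreated BJ level of FUCA1 was thus as high as the irradiated TK6 level within 0.5, and TP53I3 (8.79 to 9.06 in untreated BJ, against a mean of 7.19 in untreated TK6) and XPC (8.22 to 8.33, against 7.60) also stood higher in untreated BJ. Most other targets with a lower effect in BJ also stood higher in untreated BJ. By untreated means in BJ and TK6, these included DRAM1 (11.01 and 8.31), ZMAT3 (9.99 and 8.81), DUSP14 (9.16 and 8.04) and RRM2B (7.65 and 6.91). The same held for CDKN1A (10.38 and 9.07), TP53INP1 (8.29 and 5.62), SESN1 (6.71 and 6.32) and, barely, APAF1 (5.27 and 5.13). DDB2 (7.77 and 8.55) and LIF (4.58 and 5.32) were lower in BJ. The part of the untreated level was not tested. PPM1D gave 1.68 in both lines.

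Of the genes that rose in BJ, 3 had a larger effect in BJ than in TK6. PLK2 rose by 1.07 in BJ, and TK6 lay under the level limit with means of 2.69 in irradiated and 2.51 in untreated cells (difference 0.89, SE 0.21, adjusted p = 0.0276). LRATD2 likewise lay at 2.86 and 3.10 in irradiated and untreated TK6 (difference 2.20, SE 0.42, adjusted p = 0.00296), and KCNJ2 at 5.59 and 5.93 (difference 1.55, SE 0.30, adjusted p = 0.00296). PLK2 was not called without replicate 1, 2 or 3 (adjusted p = 0.172, 0.614 and 0.562). LRATD2 and KCNJ2 were not called without replicate 2 (adjusted p = 0.0625 and 0.0807) or 3 (adjusted p = 0.767 and 0.301). Among 40 genes of G2 and mitosis 6 had a higher, that is less negative, effect in BJ (0.144% of all genes), led by PSRC1 with -0.93 in BJ and -3.18 in TK6 (difference 2.25, SE 0.27, adjusted p = 1.12e-06).

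**Figure D5:**
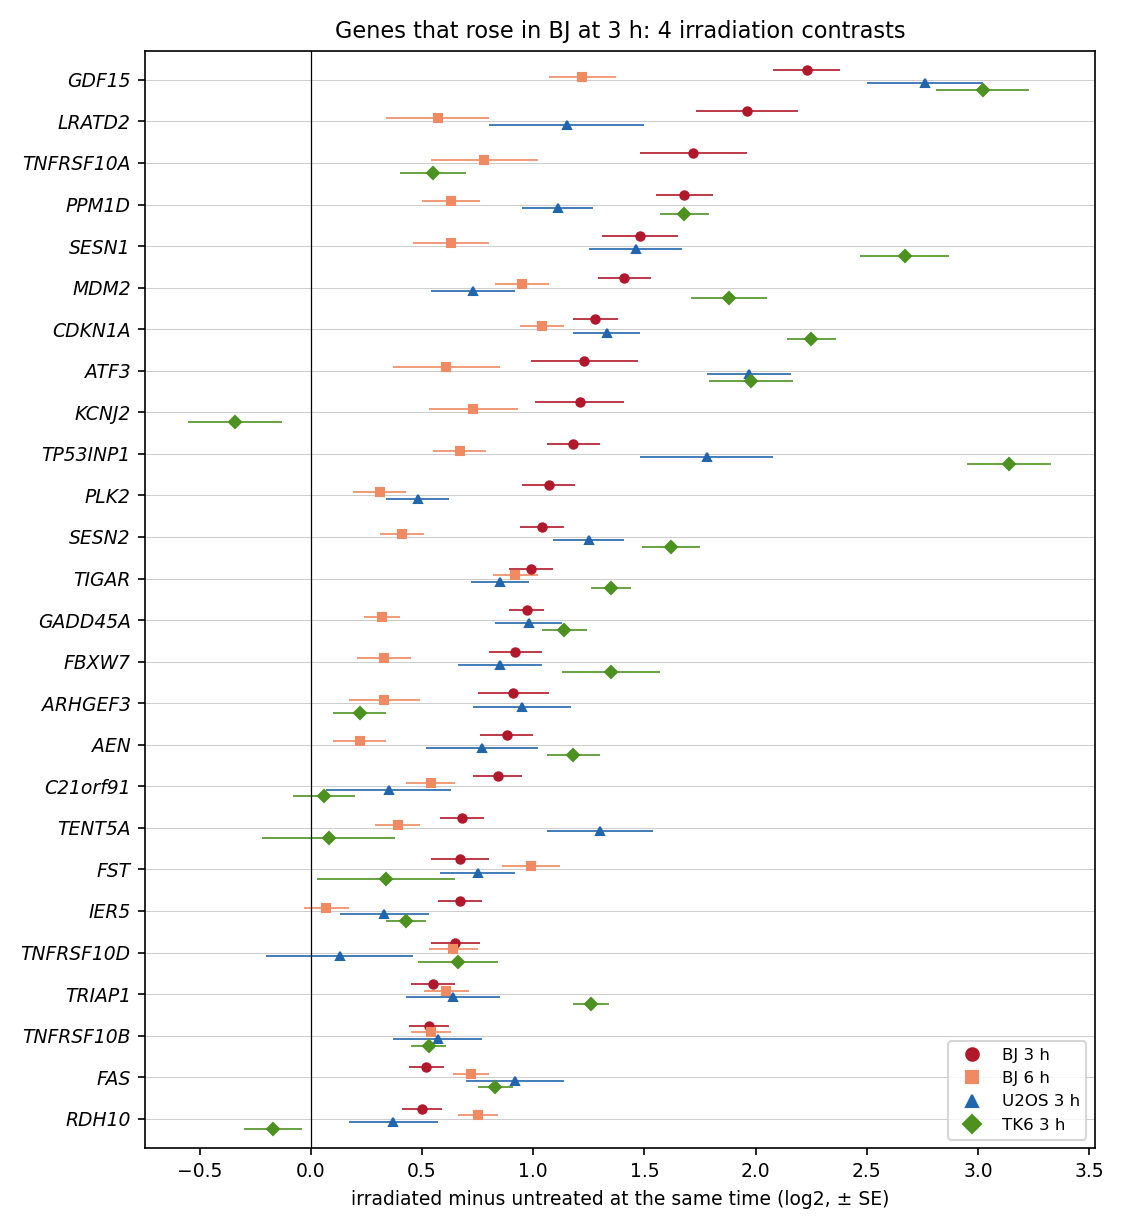
Irradiated minus untreated difference (log2, x axis, with SE) of the 26 genes that rose in BJ at 3 h, one row a gene, in BJ at 3 h and 6 h and in U2OS and TK6 at 3 h; points are missing where a gene was under the level limit of that line. All BJ and U2OS points lie right of 0, and those of KCNJ2 and RDH10 in TK6 lie left of it.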

How the data were processed

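The deposited values are log2 levels of 54675 probe sets on 75 arrays of biotin-labelled cRNA, made with RMA, per the submitters' processing notes (version, and whether lines were normalized together, not given in the sources used here). Of the probe sets, 41097 had 1 gene symbol, 1801 several and 11777 were unnamed here, and the last 2 kinds were left out. Each of 19775 genes was represented by its brightest probe set on average over all arrays, and 14467 genes above the 40th percentile of BJ probe set means were tested. Group means were fitted to the 15 BJ arrays (10 residual degrees of freedom) with limma 3.58.1 in R 4.3.3 (eBayes, trend) and Benjamini-Hochberg adjustment over all genes tested. Genes called at an adjusted p under 0.05 rose or fell. Lines were compared in 1 fit of the 45 BJ, U2OS and TK6 arrays. The steps were tested on simulated data. The comparison, the gene lists and the rule for named genes (all called genes, the 8 lower genes with the smallest p, p53 targets, up to 4 genes of each other list, and up to 6 of each difference between lines) were chosen with earlier results of these data known. Same-numbered arrays deviated together from their group means (r = 0.542, 0.517 and 0.308 for replicates 1 to 3, against -0.401 to -0.029 for unequal numbers), so the numbers pair the arrays, and the replicate number was used as a block in an alternative fit. Other alternatives changed the level filter, normalization, probe set choice, arrays fitted, variance trend, array weights, covariate, controls and replicates.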

Additional observations from a re-analysis of the deposited data

Results flagged for a closer look

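Results are given here where the irradiation effect at 3 h, tested as a difference between 2 lines with limma, differed between BJ and another line. Against U2OS this was TNFRSF10A, a difference of 1.87. Against TK6 the difference was called for 87 genes, of which 12 come first here: the genes risen in BJ, and the 6 with the smallest adjusted p. Of the risen genes these were CDKN1A (-0.97), TP53INP1 (-1.97), SESN1 (-1.19), PLK2 (0.89), LRATD2 (2.20) and KCNJ2 (1.55). The 6 were the mitotic gene PSRC1 (2.25), the p53 targets TP53I3 (-2.27), XPC (-1.40) and FUCA1 (-3.54), the zinc finger gene ZNF697 (-1.55, adjusted p = 1.25e-05) and TNFSF4, the OX40 ligand gene (-2.34, adjusted p = 1.43e-05). The other p53 targets with a lower effect in BJ than in TK6 were DRAM1 (-1.32), DUSP14 (-1.21), RRM2B (-1.30), ZMAT3 (-1.24), ANKRA2 (-1.80), DDB2 (-0.91), APAF1 (-1.56) and LIF (-1.42), with adjusted p-values of 8.93e-05 to 0.0231. ZNF697 differed by -0.07 in BJ and 1.48 in TK6, and TNFSF4 by -0.28 in BJ and 2.06 in TK6. TNFSF4 stood at 5.61, 5.85 and 4.82 in irradiated BJ arrays, against 5.69, 5.68 and 5.75 in untreated ones, so irradiated replicate 3 alone lay clearly below the rest. Groups of 3 arrays were not searched for single outlying arrays.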

How the results depend on the processing

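The 26 rises became 17 to 32 rises with no level filter, quantile normalization, the mean of all probe sets, the 6 compared arrays alone, all 75 arrays in 1 fit, eBayes without trend, array weights, the mitotic covariate and the replicate block, the lowest with all 75 arrays. With untreated 0 h and 3 h arrays as controls, 42 genes were called, 31 higher and 11 lower. Such controls carry the change of untreated cells from 0 h to 3 h too, and CHAC1 was among the 11. Lower calls also appeared with all 75 arrays (BORA, HJURP and PSRC1), under array weights (HJURP and PSRC1), without untreated replicate 1 (PSRC1) and without irradiated replicate 2 (HJURP and the metallothionein gene MT1M). With arrays or replicates left out, 12 to 21 genes rose, and 12 to 22 were called in either direction. When the replicate number was a block, 32 genes rose and all 26 kept their call, the untreated 3 h against 0 h comparison called 4 genes, not 2, and the BJ minus TK6 difference 197, not 87. The block ended no call among the genes named. Leaving out replicates gave 0 to 4 calls in the untreated comparison, 0 to 1 for BJ minus U2OS, 9 to 105 for BJ minus TK6, and 10 to 15 risen p53 targets. The median of the p53 targets, 0.31, was 0.39 with the mitotic covariate and 0.31 to 0.37 without single arrays or replicates. The median of the mitotic genes, -0.43, was -0.60 with array weights and -0.77 to -0.21 with arrays or replicates left out. It was 0.01 with the mitotic covariate, but that covariate is the mean of these same genes. A median near 0 was thus fixed in advance there and tells nothing about the mitotic difference. Over the 26 genes, 30 of 260 alternative fits with all replicates and 72 of 234 with arrays or replicates left out lost the call, and no direction turned. Of 39 fits of the differences between lines given above that left out a replicate number, 15 lost the call. The causes were not tested. Dim probe sets near the level limit (LRATD2, ATF3, TNFRSF10A) give uncertain sizes, and some of their calls are uncertain too. Of 9 fits with arrays or replicates left out, LRATD2 was called in 9, TNFRSF10A in 7 and ATF3 in 1.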
